A study of Homo sapiens with 4 samples.

Results

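Binding of NRSF/REST at the clustered protocadherin genes of human chromosome 5 was examined in H295R/TR SF-1 cells. They derive from H295R, a human adrenocortical carcinoma line, and carry an SF-1 transgene that doxycycline switches on. Chromatin was immunoprecipitated with an antibody against NRSF/REST and sequenced, with 1 library from untreated cells (basal SF-1 dosage) and 1 library after doxycycline for 3 days (increased SF-1 dosage). Both libraries come from the same engineered clone, so the comparison is between dosages of SF-1 within 1 cell line and includes no cells without SF-1. The concentration of doxycycline is given as 1 mg/mL in the labels and as 1 µg/ml in the methods. Another 2 libraries of input DNA, whose SF-1 dosage is not given, were not analysed here. The genes were chosen by symbol as all protein-coding genes on chromosome 5 starting with PCDHA, PCDHB or PCDHG, which gave 53 of 20163 protein-coding genes. A site counted as a member when it lay in these genes or within 100 kb of either end of the cluster, and this gave 4 sites out of 5323 at the basal and 4 out of 5059 at the increased dosage. Of these, 1 basal and 2 increased sites lay inside the cluster itself. The lists hold positions only, with the same score of 1000 for every site and no read counts, so the depth is unknown and differences between the lists describe these 2 libraries without a replicate check.

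The clustered protocadherins are cell-surface adhesion proteins of the cadherin family. Neurons switch on different combinations of them, which lets a neuron tell its own branches from those of its neighbours. In the α and γ clusters each isoform has its own promoter and a long variable first exon that is spliced to shared constant exons, while each β gene is a single exon. The promoters are chosen with the help of CTCF and cohesin, which loop them to distant enhancers. NRSF/REST is a zinc-finger repressor that binds elements of the RE1 (NRSE) type and, through its corepressors, keeps neuronal genes silent in cells that are not neurons. Its consensus has a left part, CTGTCC, and a right part, GGTGCTG, normally 2 bases apart.

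The widest site of the cluster lay in the gap between the α and the β genes and was present at both dosages. It covered chr5:140420451-140421099 in the basal list (hg19, 649 bp) and chr5:140420501-140421099 in the increased list (599 bp), so that the whole of the increased site overlapped the basal one. In the gap of 39.0 kb between the shared last exon of the α genes and PCDHB1, the basal site began 28.5 kb after the α genes and ended 9.86 kb before PCDHB1. The basal site covered the last 40 bp of a long non-coding RNA gene on the minus strand, ENSG00000288892 (chr5:140419578-140420490), that is, its 5′ end, and the increased site began 10 bp beyond it. An enhancer of the α genes is known in this gap. Its coordinates were not in the annotation used, and whether the site coincides with it was not tested. The site held the left and the right part of the consensus without mismatch but 8 bases apart in place of 2. These letters are shown because they carry the only exact copy of both parts in a site of the cluster, with the 2 parts in capitals (chr5:140420841-140420873, plus strand):
Called at both dosages: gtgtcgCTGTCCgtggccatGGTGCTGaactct
A second copy with the same arrangement, without a site at either dosage, lay between the first exons of PCDHA10 and PCDHA11 (chr5:140245077-140245109, plus strand):
Not called: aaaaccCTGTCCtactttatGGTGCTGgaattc
The 2 sequences have the same 13 part bases and the same distance between them, and differ in the bases around and between the parts. With 0 to 20 bases allowed between exact parts, the 926.824 kb from 100 kb before to 100 kb after the cluster held these 2 copies and no other. The surrounding 150 bases of the called copy (chr5:140420782-140420931, plus strand) show where the parts fall within the site:
Site between the α and β genes: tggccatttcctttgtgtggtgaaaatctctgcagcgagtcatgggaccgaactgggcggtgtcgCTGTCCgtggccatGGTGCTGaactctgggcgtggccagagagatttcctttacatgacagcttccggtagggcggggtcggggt

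Copies of the exact parts 8 bases apart lay inside sites elsewhere too, though few sites of either list held one. Of 220 such copies in the genome, 34.1% (75) lay inside a basal site and 31.4% (69) inside an increased site. The lists hold 5323 and 5059 sites. The same shares were 74.5% and 74.8% for 816 copies of the consensus with the usual 2 bases between the parts. At 9 bases 21.3% of 174 copies lay inside a site in both lists, and at 3 to 6 bases the share was 0.588% to 1.3% in either list. Of the 2 copies at the protocadherin genes 1 was inside a site. The site between the α and β genes was wide for its list, as 81.1% of basal and 76.4% of increased sites were narrower, and it stood at order number 601 in the basal and 630 in the increased list. Every word of 32 bases in it occurred once in the genome. When only 2 bases were allowed between the parts, its best match had 2 mismatches.

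**Figure D1:**
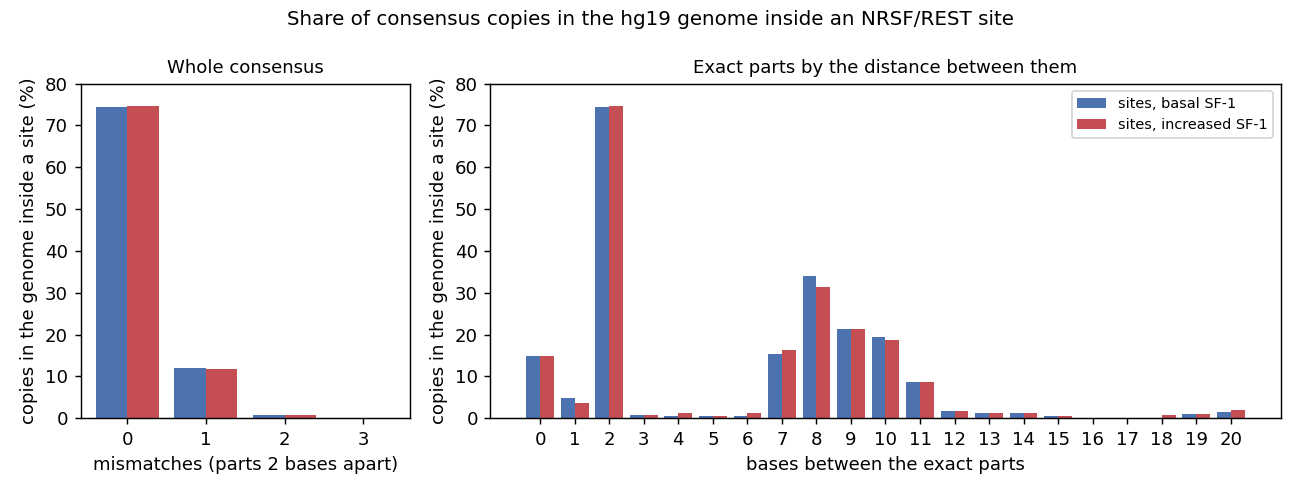
The left panel gives the share of all copies of the consensus in the genome, in %, that lay inside an NRSF/REST site by the number of mismatches, and the right panel gives the same share for exact copies of both parts by the number of bases between them, for the basal (blue) and increased (red) lists. Copies 8 bases apart, the arrangement of the site before PCDHB1, were inside a basal site in 34.1% of cases, second to the 74.5% of copies 2 bases apart.

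At the variable exons the increased list held 1 site and the basal list held none. The site lay in the first exon of PCDHA12 at chr5:140256251-140256399 (149 bp), from base 1194 to base 1342 of the coding sequence and so within the part that encodes cadherin repeats, not at the promoter. It was a narrow site, with 13.3% of the increased list narrower, at order number 4503 of 5059. It is printed whole (plus strand, fixed bases of the consensus match in capitals, which reads on the minus strand):
Site in the first exon of PCDHA12: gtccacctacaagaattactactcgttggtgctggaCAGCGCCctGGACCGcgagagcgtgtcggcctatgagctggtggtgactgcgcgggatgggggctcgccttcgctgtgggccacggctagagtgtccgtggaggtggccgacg
The match had 2 mismatches, T2G and T11C (the consensus base, its position counted from 1 at the left end of the consensus, then the base found), and its centre was 31 bp from the site's midpoint. Over the whole genome 25 copies of the consensus had this pair of substitutions, of which 1 was inside a basal site and 2, this one included, were inside an increased site. Since the α genes share their constant exons, the same site was within the bodies of all 12 genes from PCDHA1 to PCDHA12, and it was 5310 bp before the first exon of PCDHA13.

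Counted over genes, sites over a first exon were found at 0 of 53 clustered protocadherin genes in the basal list (exact 95% interval 0 to 6.72%) and at 1 of 53, or 1.89%, in the increased list (0.0478 to 10.1%). Over all protein-coding genes the shares were 1.39% and 1.31%, and both intervals include them. The intervals treat the 53 exons as independent, which near copies of each other are not, so they are descriptive only. These first exons were long, 2355 to 7973 bp with a median of 2601 bp against 192 bp for all genes, and among the 399 protein-coding genes with first exons in that range 3.76% had a basal and 4.01% an increased site over it. In the gene body, 0 genes had a basal site and 12 an increased site, the 12 being the nested α genes that share the PCDHA12 site, against 9.91% and 9.74% of all protein-coding genes. Within 10 kb of the gene, the basal list had a site at 1 of 53 genes (PCDHB1) and the increased list at 14 of 53, against 13.9% and 13.6% of all genes, and the 14 rest on 2 sites, the one in PCDHA12 and the one before PCDHB1. None of the 7 PCDHGB, 12 PCDHGA, 16 PCDHB or 5 C-type first exons (PCDHAC1, PCDHAC2, PCDHGC3, PCDHGC4 and PCDHGC5) had a site at either dosage. The γ genes were farthest from one, with the first exon of PCDHGA2 296439 bp from the nearest site.

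**Figure D2:**
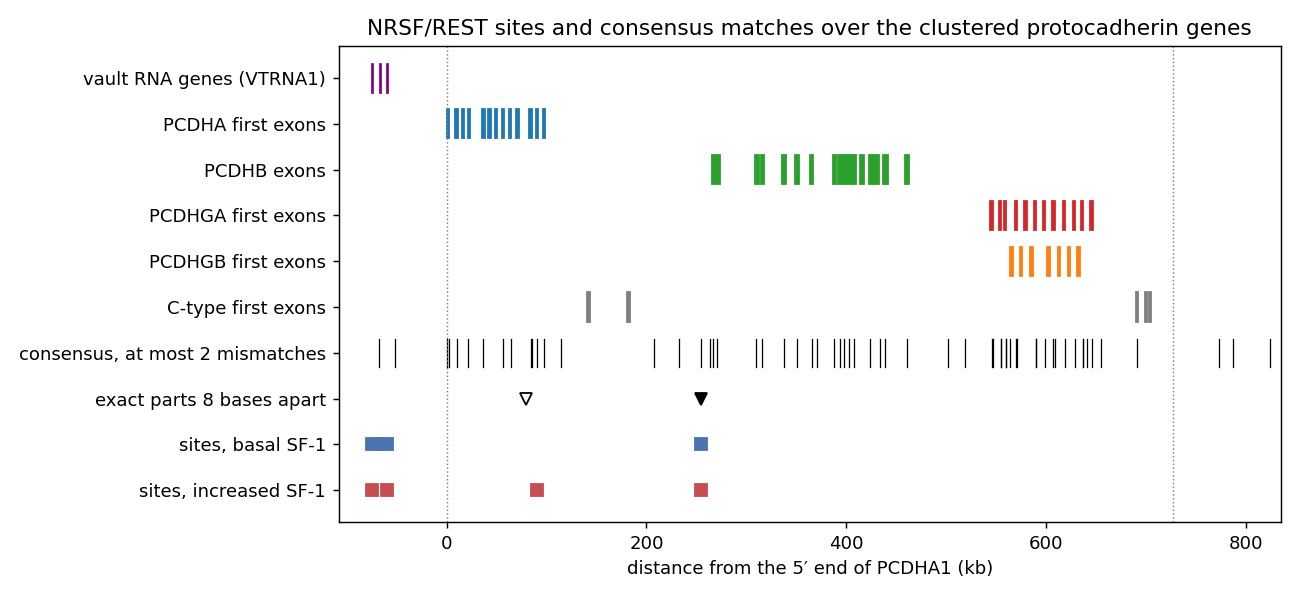
Positions along the protocadherin genes in kb from the 5′ end of PCDHA1, with the cluster between the dotted lines: vault RNA genes, first exons by subfamily, consensus matches with at most 2 mismatches (black ticks), exact parts 8 bases apart (filled triangle inside a site, open triangle outside) and the sites of each list (squares, not drawn to width). The β and γ exons held many matches and no site, and only the site before PCDHB1 and sites at VTRNA1-1 and VTRNA1-3 stood in both lists.

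The first exons themselves held many imperfect copies of the consensus. Of the 53, 36 held at least 1 match with at most 2 mismatches, against 5.15% of the first exons of all protein-coding genes and 37.1% of the 399 first exons in the same range of length. By subfamily these were 14 of 16 PCDHB, 11 of 12 PCDHGA, 9 of 13 PCDHA, 1 of 7 PCDHGB (PCDHGB1) and 1 of 5 C-type exons (PCDHGC3). None of the 46 matches was exact or had 1 mismatch. Over all protein-coding genes, first exons with at least 1 match were overlapped by a basal site in 7.41% and by an increased site in 7.31% of cases, and those whose best match had exactly 2 mismatches in 3.58% and 3.47%. The clustered genes with a match gave 0 of 36 and 1 of 36. The whole cluster held 57 such matches, of which 1 was inside a basal and 2 were inside an increased site, and over the genome 0.887% and 0.85% of 87405 matches with 2 mismatches were. The single match with 1 mismatch in the cluster, in the pseudogene PCDHGB9P, was in no site.

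Most of these matches were 1 of 3 sequences repeated from exon to exon, because the exons of a subfamily are near copies of each other. They are shown for the gene with the site and for the β and γ exons that carry a copy, with the fixed bases of the consensus in capitals, 4 bases before and 2 bases after it:
PCDHA12: ctcgCGGTCCagGGCGCTGtc
PCDHB2: gtctCTGTCTgtGGCGCTGac
PCDHGA1: ggggCTGGCCgtGGTCCTGga
The α sequence was identical in 6 genes, PCDHA2, PCDHA5, PCDHA8, PCDHA11, PCDHA12 and PCDHA13, 1227 to 1230 bases after the first coding base, and only the copy in PCDHA12 was in a site. At the same place in the other α genes 6 had 3 mismatches, among them PCDHA1:
PCDHA1: ctcgCGATCCagGGCGCTGtc
with T2G, G3A and T11C, and PCDHA9 had 4. In windows of 61 bp around the match, the other 12 α genes had 55 to 60 bases in common with PCDHA12, so the gene with the site and those without differed by few bases there. The β sequence, with C6T and T11C, was identical in 12 of 16 genes (PCDHB2 to PCDHB10, PCDHB14, PCDHB15 and PCDHB16) and differed from these only in its last base, outside the consensus, in PCDHB12. PCDHB1 had no counterpart at this place, with 8 mismatches. The γ sequence, with T4G and G12C, was identical in 7 of 12 PCDHGA genes (PCDHGA1, PCDHGA2, PCDHGA3, PCDHGA6, PCDHGA10, PCDHGA11 and PCDHGA12), and 11 of 12 had 2 mismatches there, the exception being PCDHGA5 with 4. No β or γ copy was in a site at either dosage. The remaining exons with a match, PCDHA1, PCDHA4, PCDHA9, PCDHB1, PCDHGB1 and PCDHGC3, carried it elsewhere.

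**Figure D3:**
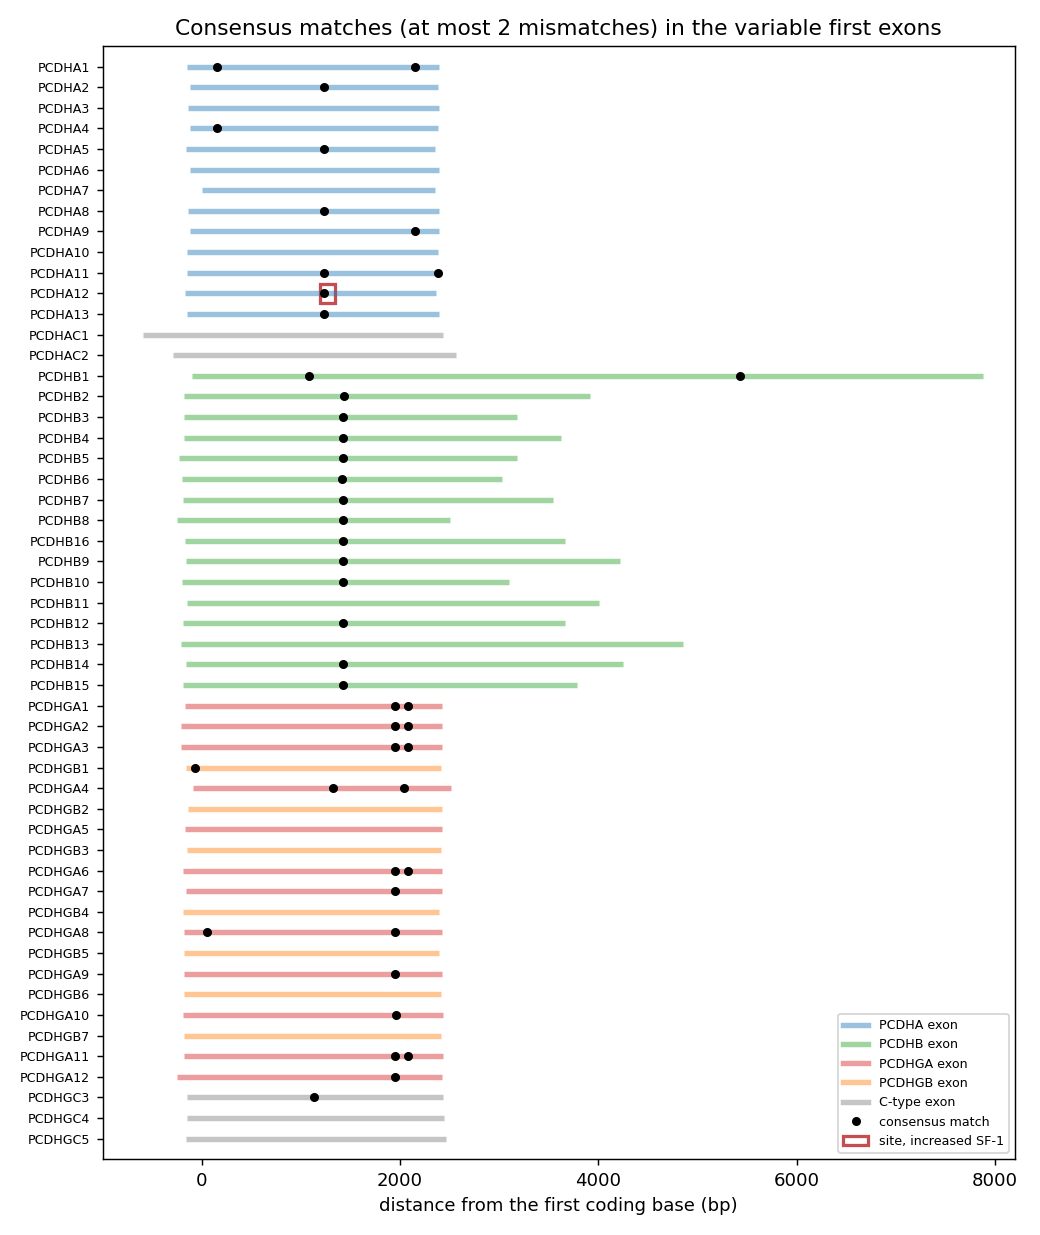
Each line is the variable first exon of 1 gene, in bp from its first coding base, coloured by subfamily, with a dot for every consensus match with at most 2 mismatches and a red box for the site of the increased list. The dots line up at the same distance within the α, β and PCDHGA genes, and the only box is at PCDHA12.

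How far reads can be placed in these exons bears on the counts. Of the 32-base words in the first exons, 43.2% to 100% occurred once in the genome, with medians of 79.6% in PCDHA, 79.1% in PCDHB, 85.7% in PCDHGA, 84.9% in PCDHGB and 100% in the C-type exons. Within 100 bp of the place of the 3 repeated sequences the medians were lower. They were 67.4% over all 13 PCDHA, 34.2% over all 16 PCDHB and 61.7% over all 12 PCDHGA exons. These medians include exons that do not carry the repeated sequence, such as PCDHB1 (100%) and PCDHGA5 (87.5%), so they are not medians of the copies alone. Among the PCDHGA exons with the identical sequence, only PCDHGA11 was above the PCDHGA median. In the PCDHA12 site 59.3% of words were unique. The length of the reads and how reads with several positions were treated are not given in the sources used here, and the part of sequence similarity in the absence of sites was not tested.

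The other member sites lay upstream of the cluster, at the 3 vault RNA genes of the VTRNA1 family. Vault RNAs are short transcripts of RNA polymerase III that belong to the vault particle. The basal list had a site at each of VTRNA1-1 (chr5:140090751-140091199, 449 bp), VTRNA1-2 (chr5:140098401-140098699, 299 bp) and VTRNA1-3 (chr5:140105601-140105999, 399 bp), and the increased list at VTRNA1-1 (chr5:140090851-140091199, 349 bp) and VTRNA1-3 (chr5:140105601-140105999, 399 bp). VTRNA1-2 was the gene that lacked a site at the increased dosage. These sites ended 59722 to 74522 bp before PCDHA1. Before each gene stood a copy of the same imperfect match, 88 to 90 bp upstream of the transcript's start, shown because the 3 copies differ at 1 base of the consensus and at 1 of the 2 bases between its parts:
VTRNA1-1: tggaCAGTCCtgGTCGCTGag
VTRNA1-2: tggaCAGTCCtgGTTGCTGag
VTRNA1-3: tggaCAGTCCagGTCGCTGag
VTRNA1-2 had 2 mismatches, T2A and G10T, and the others a further one, T11C. The best match was thus in the gene whose site was in the basal list only. Over the whole genome 81 copies of the consensus had T2A and G10T alone. Of these, 1, at VTRNA1-2, was inside a basal site and 0 were inside an increased site. Another 13 copies had T11C as well, of which 2 were inside a basal and 1 was inside an increased site. The 2 were those at VTRNA1-1 and VTRNA1-3 and the 1 was that at VTRNA1-3, so no copy elsewhere was in a site. The site at VTRNA1-1 in the increased list began after its copy, and its own best match had 4 mismatches. Of the related genes elsewhere, VTRNA2-1 was 9215 bp from the nearest site in both lists.

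**Figure D4:**
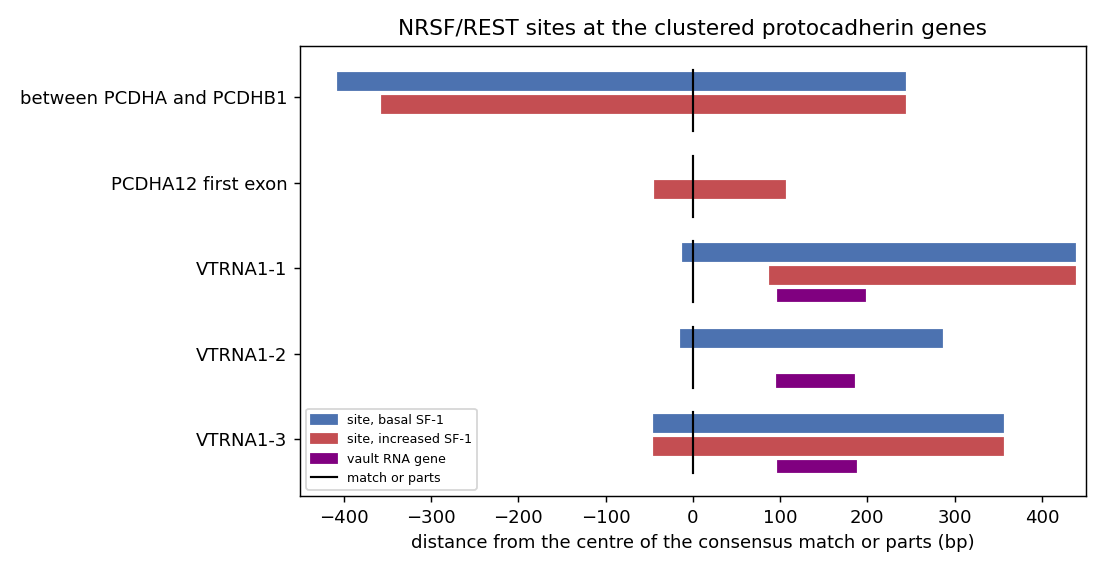
Extent of each member site in bp from the centre of its consensus match (for the site between PCDHA and PCDHB1, of the exact parts), for the basal (blue) and increased (red) lists, with vault RNA genes in purple. The match before the vault RNA genes, 88 to 90 bp upstream of each, stands near the upstream edge of the 3 basal sites and of the increased site at VTRNA1-3, the increased site at VTRNA1-1 begins after it, and the PCDHA12 site appears in the increased list only.

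Between dosages, 3 of 4 basal sites (75%, exact 95% interval 19.4 to 99.4%) and 3 of 4 increased sites overlapped a site of the other list, against 64.5% and 67.9% of all sites. The 2 that did not, at VTRNA1-2 and PCDHA12, were the narrowest member site of their lists. The consensus with at most 2 mismatches was in 2 of 4 sites of each list (50%, 6.76 to 93.2%), against 40.7% of all basal and 42.1% of all increased sites, and in 0 of 8 windows as wide as the member sites and placed 10 kb before and after them in each list (0 to 36.9%). Counts of 4 sites leave intervals that include the shares of the whole lists. None of the 8 sites held the SF-1 consensus in any of its forms CAAGGTCA, CAAGGACA or CAAGGCCA. The share of all sites of either list that held one was not counted, so this absence has no background to be set against. No test between dosages was possible with 1 library of each.

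**Figure D5:**
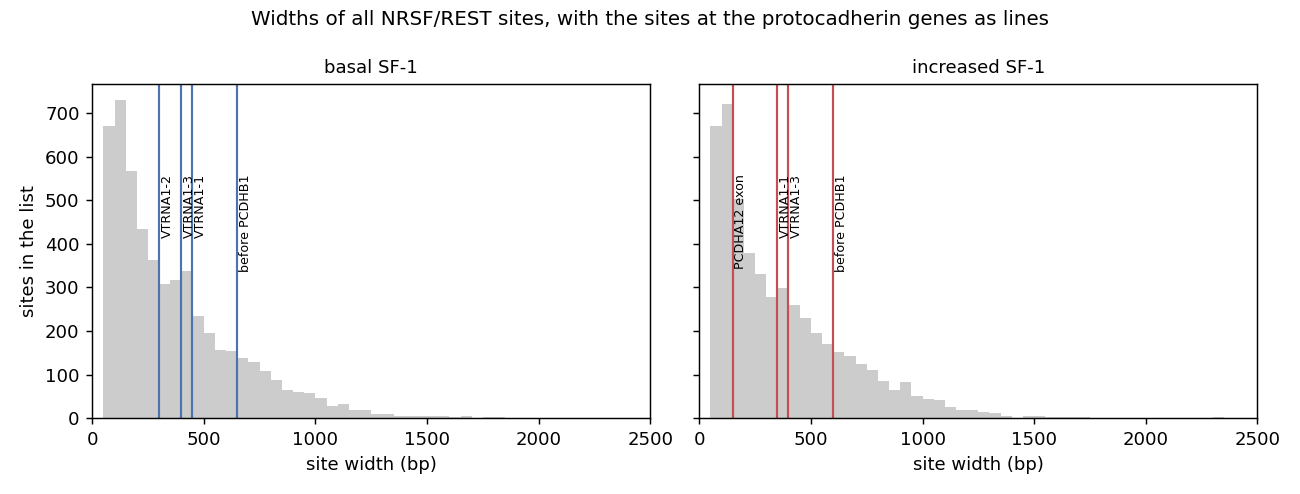
Number of sites by width in bp for the basal (left) and increased (right) list, with the member sites as lines. The site before PCDHB1 is in the wide part of both lists at 649 and 599 bp, and the PCDHA12 site, at 149 bp, is below the median of 299 bp.

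The density of sites in the cluster rests on few counts. Its 726.824 kb held 1.38 basal and 2.75 increased sites per Mb, from counts of 1 and 2, against 1.72 and 1.63 per Mb of the genome. When the genome was cut into 4246 pieces of the same length, the median piece held 1 site in either list, and 67.8% of pieces had no more basal and 84.6% no more increased sites than the cluster. The other protein-coding genes in or near the cluster, among them TAF7, a subunit of the general transcription factor TFIID, and DIAPH1, a formin that builds actin filaments, had no site over the gene in either list.

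Related genes were searched for sites in the gene or within 10 kb. Of 12 non-clustered protocadherins, 2 had a site in each list, PCDH1 and PCDH8, against 13.9% and 13.6% of all protein-coding genes. PCDH8, on chromosome 13, had 2 sites in each list, and the wider of them lay 1675 bp before the gene, with 799 bp in the basal and 949 bp in the increased list. PCDH1, also on chromosome 5, had its widest site 3890 bp before the gene in the basal list (849 bp) and 3940 bp before it in the increased list (849 bp). When only 2 bases were allowed between the parts, the best match in these PCDH1 sites had 4 mismatches. Among 11 regulators of chromatin at these clusters, which include CTCF and the cohesin subunits, RAD21 had a site at both dosages (249 bp) and NIPBL, which loads cohesin, a site of 99 bp at the increased dosage only. Among 11 intracellular and shedding partners, PTK2B, a tyrosine kinase that binds the α and γ constant domains, had a site with the exact consensus at both dosages (399 and 449 bp), and WASF1, an actin regulator of the WAVE complex, had a site at both dosages (499 and 399 bp). ADAM10, the protease that sheds protocadherins, had a site in the basal list only, and NCKAP1 and ABI1, further WAVE subunits, in the increased list only. In these other sites of regulators and partners the best match was less close. It had 2 mismatches at WASF1, 4 at NIPBL, 5 at RAD21 and NCKAP1, 6 at ADAM10 and 7 at ABI1. In all, 1 of 11 regulators at the basal and 2 of 11 at the increased dosage had a site, and 3 of 11 and 4 of 11 partners did. The shares of all protein-coding genes were 13.9% and 13.6%. Gene length was not taken into account, and a difference from these shares was not tested.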

How the data were processed

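NRSF/REST ChIP-seq was available from H295R/TR SF-1 cells as 1 list of sites per dosage. Per the labels, reads were mapped to hg19 with ELAND in CASAVA 1.6. The CisGenome peak caller is stated for SF-1 sites, and for NRSF/REST sites the caller is not given in the sources used here. In the deposited lists the score is 1000 for every site and the fourth column is an order number, so no read depth or binding strength is known. Intervals cover counting error over sites, windows or first exons only, as if these were independent. Nothing says whether the 2 libraries were prepared together.

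Starts were counted from 1. The software was Python 3.11.15 with pysam 0.24.0 for sequences, numpy 2.4.6 for counts and scipy 1.17.1 for intervals. Genes were those of GENCODE release 44 mapped to hg19. The first exon was that of the coding transcript with the longest coding sequence, and exons at most 20 bp apart were joined. Sequences were read from GRCh37, the same assembly as hg19. The consensus was CTGTCC and GGTGCTG, 2 bases apart, searched on either strand, and up to 2 of its 13 fixed bases could differ. Parts 0 to 20 bases apart, whole-genome copies and 32-base words were also counted. The overlap, consensus, parts and word-count steps were tested on simulated data. A site and a gene or another site overlapped from 1 bp. Intervals are exact (Clopper-Pearson).

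Named were genes with a site over the first exon, genes whose first exon held the consensus, every member site and genes of 3 lists of related genes. Members, lists and searches were chosen with earlier results of these data known. Alternatives were other flanks, overlap rules, mismatches, first exons, windows and the widest 50% of each list. The cluster without flanks and the parts at any distance up to 20 bases were chosen after seeing the data. Each dosage has 1 library, so no test between dosages was made. A further result at a non-clustered protocadherin gene is not reported here.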

Additional observations from a re-analysis of the deposited data

How the results depend on the processing

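With flanks of 50 kb or none, the member sites were 1 in the basal and 2 in the increased list, since the vault RNA genes then fell outside, and without flanks 1 of 1 basal and 1 of 2 increased sites were shared between dosages. In the widest 50% of the increased list no first exon had a site (0), since the PCDHA12 site is narrow. The consensus was in 0 sites of either list with no mismatch or with at most 1, in 4 basal sites with at most 3, in 1 of 3 sites of either list in its widest 50%, and without flanks in 1 of 1 basal sites. No paired analysis was possible because each dosage has 1 library. Windows placed 50 kb away held the consensus in 1 of 8 cases in each list. The other alternatives stayed within 1.5 times the count reported. Read depth, and so whether a missing site reflects coverage, is unknown.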
